A study of Homo sapiens with 6 samples.

Results

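The data describe the subunits of the transcription factor AP-1 in A549, a long-established cell line from a human adenocarcinoma of the lung, collected 24 h after 1 of 3 synthetic RNA duplexes was transfected. The control group received a negative control mimic, a second group a miR-608 mimic and the third a miR-552-3p mimic, each carried into the cells with the lipid reagent Lipofectamine RNAiMAX, and each group has 2 arrays. Total RNA was hybridised to Illumina bead arrays, and the series title names gene silencing by the 2 microRNAs as the subject. The members are the 9 genes FOSL1, FOSL2, FOS, FOSB, JUN, JUNB, JUND, ATF3 and BATF3, taken as every probe that carries 1 of these symbols in the platform annotation. They have 11 of the 47319 probes. The 9 genes were chosen by their family with earlier differences from the control on these same arrays in view, in which FOSL1 was among the largest rises with both mimics, so their own differences are given as a description, without p-values.

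AP-1 is a pair of basic leucine zipper proteins that binds DNA as a dimer, classically a FOS protein with a JUN protein. FOS proteins do not pair with themselves and need a JUN partner, whereas JUN proteins can also pair with each other or with ATF and BATF proteins. Growth factor and stress kinases raise the genes quickly, FOS and FOSB as brief early responders and FOSL1 as a later, longer-lived one, and in epithelial tumours FOSL1 is known for its link to migration and invasion. ATF3 is a stress-response gene whose protein pairs with JUN proteins.

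The mimics carry the sequences of the following mature human microRNAs, as RefSeq gives them for GRCh38.p14, shown because the seed (bases 2 to 8, in capitals) differs between the mimics. The gene of miR-608 lies on the plus strand at chr10:100975000-100975024 and that of miR-552-3p on the minus strand at chr1:34669614-34669634.
hsa-miR-608: aGGGGUGGuguugggacagcuccgu
hsa-miR-552-3p: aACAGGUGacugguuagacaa

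The signals were background corrected, quantile normalized and put on a log2 scale, called normalized intensity here. Of the 11 member probes 9 passed the detection filter (2 or more of the 6 arrays with a detection p below 0.05), 1 for each of the 9 genes. A probe is said to be called where the limma fit over all 20749 kept probes gave it a Benjamini-Hochberg adjusted p under 0.05. A call says that a difference exceeded the spread between these arrays. No label tells whether a group's 2 arrays came from separate cultures, so this spread may be technical. Levels are compared only between arrays for 1 probe at a time, since the brightness of different probes is not comparable, and in such bulk RNA fewer expressing cells and less RNA per cell cannot be told apart.

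Median signal on the 6 arrays lay between 181.7 and 200.7 and the number of detected probes between 18550 and 19758. All 5 epithelial markers checked (EPCAM, KRT8, KRT18, KRT19 and CDH1) were detected on every array. Of the alveolar type II markers ABCA3 was detected, while the surfactant genes SFTPA1, SFTPB and SFTPC were detected on none. PTPRC, CD3E, PDGFRB, PECAM1, CDH5 and VWF, which mark immune, mesenchymal and endothelial cells, were also detected on none, whereas CD14 and COL1A1 were detected. Of the COL1A2 probes, 1 was detected on 3 arrays and the other on 1. The summed signal of the 7 immune marker probes was 1952 to 2009 in the control, 1778 to 1873 with miR-608 and 1321 to 1323 with miR-552-3p. It was carried by 1 CD14 probe, with signals of 1084 and 1143, 942 and 906, and 508 and 481, as the other 6 probes were detected on no array. The summed signal of the 8 epithelial marker probes was 44532 to 46655 in the control, 50025 to 51022 with miR-608 and 35115 to 38186 with miR-552-3p. The KRT8 probe gave its largest share, and single markers went against the sum. With miR-608 the brightest EPCAM probe was lower, at 9310 and 8933 against 9960 and 10418 in the control. With miR-552-3p KRT19 was higher, at 3274 and 3177 against 2484 and 2603. The part of these shifts in the AP-1 values was not tested.

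Within the FOS family the members moved apart. FOSL1 was higher with both mimics, FOS was lower with both, and FOSL2 and FOSB were each higher with miR-552-3p than with miR-608. FOSL1, which encodes FRA-1, had signals of 377 and 429 on the control arrays, 1155 and 1067 with miR-608 and 2696 and 2934 with miR-552-3p. Its normalized log2 intensity was 7.76 and 7.99 in the control, 9.95 and 9.91 with miR-608, and 11.39 and 11.45 with miR-552-3p. The 3 groups formed separate steps without overlap. The difference from control was 2.05 ± 0.10 log2 units (SE, 2 arrays per group) or 4.15-fold with miR-608, and 3.54 ± 0.10 or 11.7-fold with miR-552-3p. Of all 20749 kept probes, FOSL1 had the highest difference in the latter comparison, at rank 1, and it held rank 10 in the former.

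FOS, the founding member and an immediate-early gene, went the other way. Its signals were 1968 and 1432 on the control arrays, 626 and 529 with miR-608 and 462 and 417 with miR-552-3p. The normalized log2 intensity was 10.78 and 10.19 in the control, 8.89 and 8.66 with miR-608, and 8.47 and 8.20 with miR-552-3p. Both control arrays lay above all 4 mimic arrays, although they differed from each other more than the arrays of either mimic group did. FOS was 3.27-fold lower with miR-608 (-1.71 ± 0.23 log2 units) and 4.43-fold lower with miR-552-3p (-2.15 ± 0.23). It thus had rank 70 and rank 26 among the lowest differences of the kept probes.

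FOSL2, which encodes FRA-2, had normalized log2 intensities of 7.59 and 7.84 in the control, 7.55 and 7.40 with miR-608, and 8.49 and 8.57 with miR-552-3p. The 2 miR-552-3p arrays stood above the other 4. The difference was 0.82 ± 0.12 log2 units with miR-552-3p and was called. With miR-608 it was -0.24 ± 0.12, which was not called, with a 95% interval from -0.54 to 0.06.

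FOSB, an early responder like FOS, had normalized log2 intensities of 7.14 and 6.75 in the control, 6.16 and 6.05 with miR-608, and 7.51 and 7.36 with miR-552-3p. Neither miR-608 array detected the probe (detection p of 0.07403 and 0.1117), so only a bound is measured there, and FOSB was at least 1.64-fold lower than in the control. With miR-552-3p the difference was 0.49 ± 0.15, which was not called, with a 95% interval from 0.11 to 0.87. Its miR-608 call was lost when either miR-608 array was left out.

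**Figure D1:**
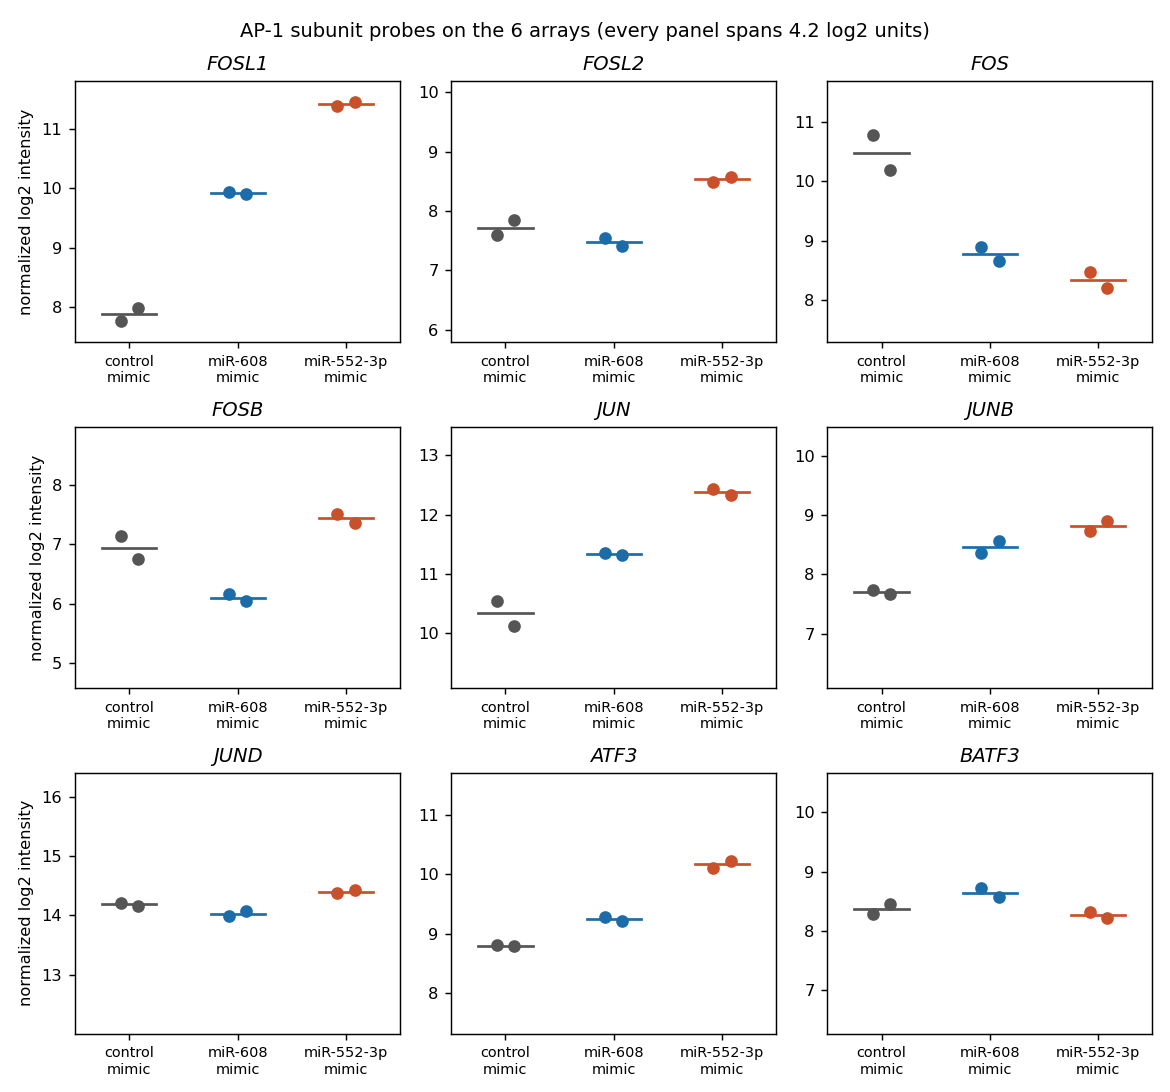
Normalized log2 intensity (vertical axes, each spanning the same range) of the 9 detected AP-1 probes on the 6 arrays, by mimic. Points are single arrays and bars are group means of 2 arrays; FOSL1 climbs from 7.88 to 11.42 on average, while FOS drops from 10.49 to 8.34.

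In the JUN family, JUN and JUNB were higher with both mimics and JUND moved little. JUN, the main partner of FOS proteins, had signals of 1701 and 1374 on the control arrays, 2797 and 2603 with miR-608 and 5506 and 5276 with miR-552-3p. Normalized log2 intensity was 10.54 and 10.12 in the control, 11.36 and 11.32 with miR-608, and 12.43 and 12.33 with miR-552-3p. As for FOSL1, the groups formed 3 steps in the order control, miR-608 and miR-552-3p, with no overlap. JUN was 2.00-fold higher with miR-608 (1.00 ± 0.15 log2 units) and 4.13-fold higher with miR-552-3p (2.05 ± 0.15). The miR-608 difference was 0.98 and no longer called without miR-608 replicate 1.

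JUNB, a weaker activator than JUN that can restrain it, had normalized log2 intensities of 7.74 and 7.67 in the control, 8.35 and 8.57 with miR-608, and 8.73 and 8.90 with miR-552-3p. All 4 mimic arrays exceeded both control arrays. The differences were 0.76 ± 0.11 (1.69-fold) and 1.11 ± 0.11 (2.16-fold), both called, the first not without control replicate 2. JUND, the broadly and steadily expressed member, had signals of 18844 and 19035 in the control, 16369 and 16773 with miR-608 and 21379 and 22826 with miR-552-3p. The groups did not overlap, but the differences from control were small, -0.16 ± 0.08 and 0.21 ± 0.08, and neither was called. Their 95% intervals ran from -0.36 to 0.05 and from 0.01 to 0.42.

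ATF3 had 3 probes. The detected one had signals of 620 and 642 on the control arrays, 776 and 710 with miR-608 and 1162 and 1296 with miR-552-3p. Its normalized log2 intensity was 8.80 and 8.79 in the control, 9.28 and 9.21 with miR-608, and 10.11 and 10.23 with miR-552-3p. The groups again stood in 3 separate steps. The differences were 0.45 ± 0.08 (1.36-fold) with miR-608 and 1.37 ± 0.08 (2.59-fold) with miR-552-3p, and both were called. The miR-608 call was lost on leaving out any 1 of the 4 arrays compared. The other 2 ATF3 probes were detected on 0 of the 6 arrays, with signals of 95.7 to 133 and 108 to 138, and say nothing on the direction.

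BATF3, a small zipper protein that pairs with JUN proteins and is best known from dendritic cells, had normalized log2 intensities of 8.28 and 8.46 in the control, 8.72 and 8.57 with miR-608, and 8.32 and 8.22 with miR-552-3p. Its control and miR-552-3p arrays overlapped. Neither difference from control was called, at 0.27 ± 0.10 and -0.10 ± 0.10, with 95% intervals from 0.01 to 0.54 and from -0.37 to 0.17.

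Counted over the members, 4 probes were higher and 2 lower with miR-608 and 3 were not called. Among all kept probes 28.4% were called in this comparison, 14.0% higher and 14.4% lower. With miR-552-3p 5 members were higher, 1 was lower and 3 were not called, where 30.9% of kept probes were called, 14.7% higher and 16.1% lower. The groups did not overlap for 9 members with miR-608 (65.7% of kept probes) and for 8 with miR-552-3p (67.0%). The median difference without sign was 0.76 log2 units over the members and 0.26 over the kept probes with miR-608, and 1.11 against 0.27 with miR-552-3p. These shares are set beside the counts as background only, since the members were chosen with these comparisons known. Both comparisons use the same 2 control arrays, so a control array that stood off would move both. Without miR-608 replicate 1, FOSB, JUN and ATF3 were no longer called with miR-608. Fewer of all kept probes were called in that fit too, so the loss is not particular to the members.

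Set against each other directly, which leaves the control arrays out of the difference, the mimics differed in 7 of the 9 members, where 36.5% of kept probes were called, 18.3% higher and 18.2% lower with miR-608. Lower with miR-608 were FOSL1 (-1.49 ± 0.10 log2 units, 2.81-fold), FOSL2 (-1.06 ± 0.12, 2.08-fold), JUN (-1.04 ± 0.15, 2.06-fold) and ATF3 (-0.93 ± 0.08, 1.90-fold). FOSB was at least 2.30-fold lower, being undetected with miR-608. JUND was lower by a smaller amount (-0.37 ± 0.08), and BATF3 was the 1 member that was higher with miR-608 (0.37 ± 0.10). The JUND call was lost when any 1 of the 4 mimic arrays was left out, as was that of BATF3. BATF3 was also not called with only the 4 mimic arrays in the fit, or without either control array, which removes the control's spread in the same way. FOS differed by 0.44 ± 0.23 (95% interval from -0.14 to 1.01) and JUNB by -0.35 ± 0.11 (from -0.64 to -0.07), and neither was called. All 9 members had groups that did not overlap, as had 69.3% of the kept probes.

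**Figure D2:**
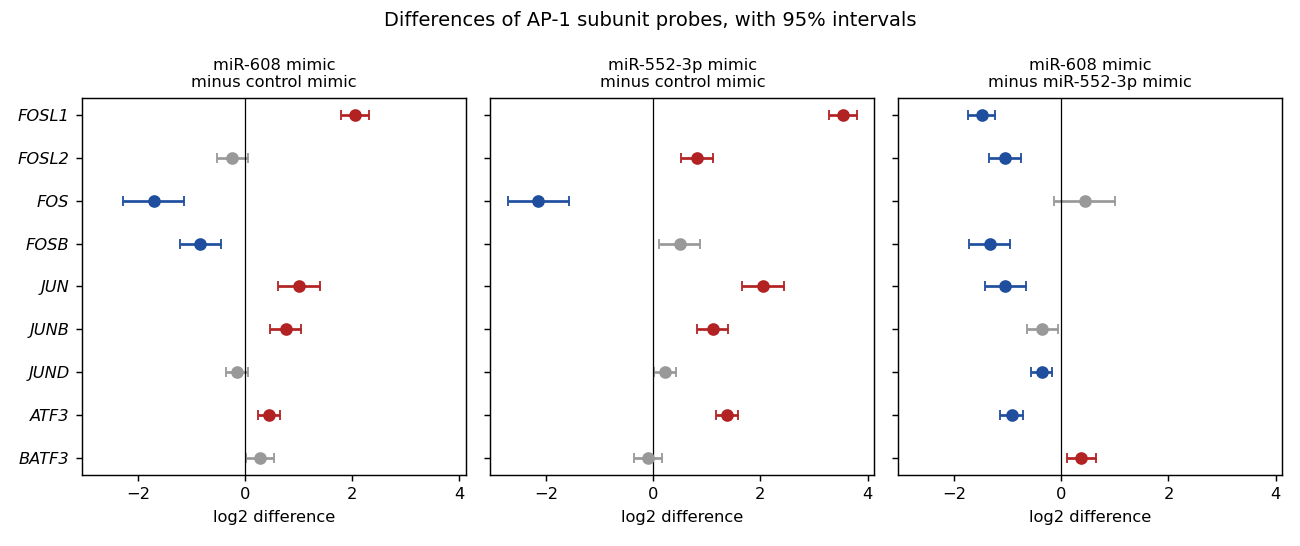
Log2 differences (horizontal axes) of the 9 AP-1 probes in the 3 comparisons, with 95% intervals from the limma fit. Red points were called higher, blue points lower and grey points not; FOS is the only member lower with both mimics, at -1.71 and -2.15.

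Stretches before the gene starts of 3 members are shown, JUN and ATF3, which rose with both mimics, and FOS, which fell with both. JUNB also rose with both, and its window, which held neither motif marked below, is not shown. Each stretch is the 250 bases before a start in RefSeq (GRCh38.p14), 5′ to 3′ on the gene's strand. The table held entries for 7 of the 9 members; FOSL1 and BATF3 were not matched. Motifs were searched on both strands. Capitals mark matches to TGANNTCA, the spacing that ATF and JUN pairs favour, or to TGACGT, the core that CREB and ATF proteins bind. These motifs overlap where TGACGT is followed by CA. JUN lies on the minus strand at chr1:58784048-58784297, FOS on the plus strand at chr14:75278578-75278827 and the ATF3 window, the first of 2 starts listed for that gene, on the plus strand at chr1:212565157-212565406.
JUN: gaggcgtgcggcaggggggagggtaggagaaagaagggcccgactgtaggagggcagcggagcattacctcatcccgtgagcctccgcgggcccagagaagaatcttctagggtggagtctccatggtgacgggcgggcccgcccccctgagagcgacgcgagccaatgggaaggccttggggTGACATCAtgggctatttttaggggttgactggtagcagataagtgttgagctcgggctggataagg
FOS: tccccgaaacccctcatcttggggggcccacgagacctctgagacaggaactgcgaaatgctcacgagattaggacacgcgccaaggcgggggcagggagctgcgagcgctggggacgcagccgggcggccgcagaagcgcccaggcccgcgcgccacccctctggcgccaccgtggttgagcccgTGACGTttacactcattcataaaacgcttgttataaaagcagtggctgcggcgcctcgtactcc
ATF3: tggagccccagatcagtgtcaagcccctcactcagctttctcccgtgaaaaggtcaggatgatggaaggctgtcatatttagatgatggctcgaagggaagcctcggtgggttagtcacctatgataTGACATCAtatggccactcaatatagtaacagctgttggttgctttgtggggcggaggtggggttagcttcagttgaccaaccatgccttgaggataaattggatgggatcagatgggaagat

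The JUN and ATF3 windows held the same 8 letters, TGACATCA, beginning 67 and 123 bases before the start. TGANNTCA occurred in 10.1% of the 35116 promoter windows of the same length. The FOS window held TGACGT 64 bases before the start, as did that of FOSL2 at 66 bases and that of FOSB at 60 bases, and the motif was found in 7.1% of all windows. JUND held both motifs, as TGACGTCA 200 bases before its start, while JUNB and the second ATF3 window held neither. TGANTCA, the classical AP-1 site, was in none of the member windows and in 6.57% of all. FOSL2 and FOSB shared TGACGT with FOS but were not lower with both mimics. A match describes the letters only, and a link between motif and direction was not tested. Which start served the transcript read by the ATF3 probe was not determined.

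Genes around AP-1 were described by lists, each gene by its brightest kept probe. All the lists were chosen with earlier results of these data known. Their counts and the adjusted p-values of their genes are therefore a description and no independent evidence. The first holds immediate-early genes outside AP-1, which the same kinase signals induce, and 14 of its 17 genes were measured. With miR-552-3p 13 of the 14 were higher and 1 was lower, where 15.6% of named genes were higher and 20.0% lower, and the list's median was 0.63 against -0.002 for all named genes. CCN1, a matrix-associated signalling protein, rose by 2.04 ± 0.09 log2 units (limma, adjusted p = 0.000997) and the zinc finger factor KLF6 by 1.75 ± 0.09 (adjusted p = 0.001). DUSP5, a phosphatase that acts on ERK in the nucleus, rose by 1.35 ± 0.08 (adjusted p = 0.00107) and the receptor signalling inhibitor SPRY2 by 1.14 ± 0.09 (adjusted p = 0.00178). Without miR-552-3p replicate 2 the count of higher genes was 8.

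With miR-608 7 of the 14 immediate-early genes were higher and 2 lower, beside 16.3% and 16.8% of named genes, with a median of 0.33 against 0.02. DUSP5 rose by 1.32 ± 0.08 (limma, adjusted p = 0.00167), DUSP6, an ERK phosphatase of the cytoplasm, by 1.08 ± 0.08 (adjusted p = 0.00186), CCN1 by 0.93 ± 0.09 (adjusted p = 0.0029) and KLF6 by 0.90 ± 0.09 (adjusted p = 0.00394). The falls were those of EGR1 and PHLDA1, named after their values were seen. EGR1, an immediate-early zinc finger factor, fell by 1.35 ± 0.28 with miR-608 (adjusted p = 0.0232) and, as the 1 lower gene there, by 1.13 ± 0.28 with miR-552-3p (adjusted p = 0.0356). Both falls use the same 2 control arrays, whose EGR1 values had an SD of 0.61, against 0.09 in either mimic group. The EGR1 call was lost without either miR-608 array for miR-608, and without any 1 of the 4 mimic arrays for miR-552-3p. For the miR-608 arrays this equals a fit on only the groups compared, since a lone array adds nothing to the estimate of the spread. PHLDA1 fell by 0.72 ± 0.09 with miR-608 (adjusted p = 0.00565), while a second PHLDA1 probe was called higher, at 0.69. Between the mimics 7 of the 14 were lower and 1 higher with miR-608, where 19.7% and 22.7% of named genes were, led by PHLDA1 (-1.56 ± 0.09, adjusted p = 0.000638; other probe at -0.11 and not called). CCN1 (-1.11 ± 0.09) and KLF6 (-0.85 ± 0.09) were lower too, and DUSP6 was higher (0.67 ± 0.08; other probe at 0.46 and not called), with adjusted p values of 0.00109, 0.00262 and 0.0028.

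The second list holds 25 genes known to respond to AP-1, of which 20 were measured. It was drawn up with earlier values of PLAU, CXCL8, IL11 and CD44 known, so its counts and adjusted p-values are no independent evidence. With miR-608 7 were higher and 1 lower, a median of 0.22, beside 16.3% and 16.8% of all named genes. Urokinase (PLAU) rose by 2.10 ± 0.09, tissue plasminogen activator (PLAT) by 1.63 ± 0.09 and the chemokine CXCL8 by 1.57 ± 0.09, while the gap junction gene GJA1 fell by 1.59 ± 0.09 (limma, adjusted p = 0.00158 for each). The urokinase receptor PLAUR, tied with these in adjusted p, rose by 1.71 ± 0.07, and its other probes were called higher too. With miR-552-3p 7 were higher and 0 lower, a median of 0.26, beside 15.6% and 20.0% of named genes. The cytokine IL11 rose by 2.44 ± 0.22 (adjusted p = 0.0023), CXCL8 by 1.84 ± 0.09 (adjusted p = 0.000997), the cytokine LIF by 1.55 ± 0.18 (adjusted p = 0.00408) and PLAUR by 0.95 ± 0.07 (adjusted p = 0.00152). With an intensity trend in the fit 11 were higher and 1 lower. That setting also raised the calls over all kept probes, from 3054 to 4050 higher and from 3349 to 4019 lower.

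Between the mimics the list split by gene, with 5 higher and 7 lower with miR-608, beside 22.7% and 19.7% of named genes. Higher with miR-608 were PLAT (1.62 ± 0.09), PLAU (1.42 ± 0.09) and PLAUR (0.76 ± 0.07), the genes of plasminogen activation, and GJA1 was lower (-1.98 ± 0.09), with adjusted p between 0.000549 and 0.00175 (limma). These 3 genes were highest where FOSL1 and JUN took their middle level. IL11 (-0.97 ± 0.22) and LIF (-0.997 ± 0.18) were called lower with miR-608 and had group means in the order of FOSL1. That order also held for genes not called between the mimics, CXCL8 and VEGFA among them. A link between the levels of these genes and those of AP-1 subunits was not tested. The LIF rise from control to miR-608, 0.56 ± 0.18, was not called. The remaining genes called lower had miR-608 means below the control, and of these only GJA1 was called against the control. The count of lower genes dropped on leaving out single arrays, to 2 and 3 for miR-608 replicates 1 and 2, and to 2 and 1 for the corresponding miR-552-3p arrays.

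**Figure D3:**
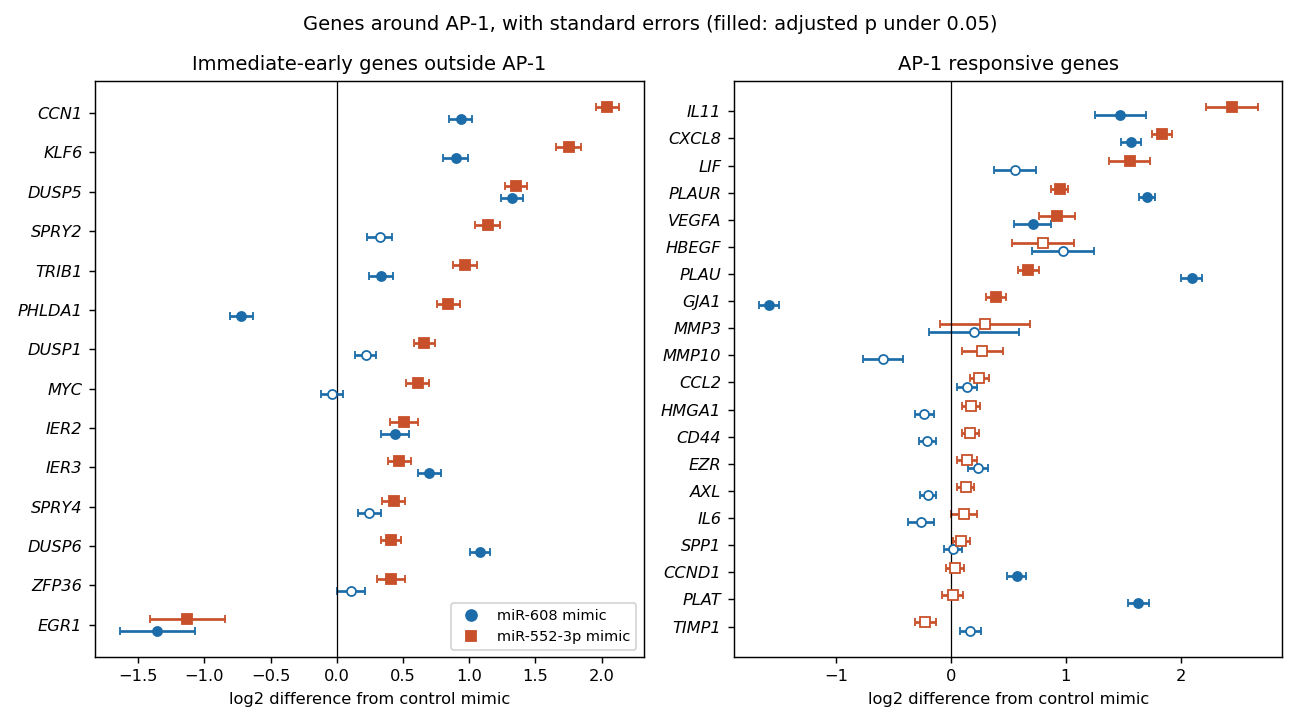
Log2 difference from the control mimic (horizontal axes) for the measured immediate-early genes outside AP-1 and AP-1 responsive genes, with standard errors from the limma fit. Circles stand for miR-608 and squares for miR-552-3p, filled where called; 13 of 14 immediate-early genes are called higher with miR-552-3p and EGR1 is lower with both.

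Of 15 kinases and factors that act on AP-1, 12 were measured. With miR-608 5 were higher and 2 lower, a median of 0.29, where 16.3% and 16.8% of named genes were. With miR-552-3p 3 were higher and 6 lower, a median of -0.29, where 15.6% and 20.0% were. ELK1, an ERK-activated factor at the FOS promoter, fell with both mimics, by 1.09 ± 0.10 and 0.97 ± 0.10 (limma, adjusted p = 0.00285 and 0.00298). Its promoter partner SRF rose by 1.21 ± 0.08 with miR-552-3p (adjusted p = 0.00115). FBXW7, which marks JUN protein for degradation, rose by 1.11 ± 0.09 with miR-608 (adjusted p = 0.00229), with 1 of its 2 other probes not called. The ERK kinase MAPK3 rose by 0.59 ± 0.10 with miR-608 (adjusted p = 0.0131) and fell by 0.74 ± 0.10 with miR-552-3p (adjusted p = 0.00604). The upstream kinase MAP2K1 fell by 0.77 ± 0.11 with miR-552-3p (adjusted p = 0.00669), and the JNK gene MAPK9 rose by 0.67 ± 0.13 with miR-608 (adjusted p = 0.0172), its other probe at 0.59 not called.

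Several counts of this list fell when an array of a compared group was left out. The number of all kept probes called fell as well, and whether this list fell by more was not tested. With miR-608 the number of higher genes dropped to 2 and 1 on leaving out control replicates 1 and 2, and to 1 and 3 for the corresponding miR-608 arrays, and the number of lower genes was 1 without any of these 4 arrays. MAPK9 was not called without either control array or miR-608 replicate 1, nor MAPK3 without control replicate 2 or miR-608 replicate 1. With miR-552-3p the number of lower genes was 3 without control replicate 2. Between the mimics 7 were higher and 1 lower with miR-608 (22.7% and 19.7% of named genes), or 4 higher without miR-552-3p replicate 1. MAPK3 (1.34 ± 0.10), MAP2K1 (1.33 ± 0.11) and MAPK8 (0.86 ± 0.09; other probe at 0.18 and not called) were higher and SRF was lower (-0.97 ± 0.08), with adjusted p between 0.00102 and 0.00254 (limma).

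Other bZIP genes whose proteins pair with AP-1 subunits were measured for 5 of 10. With miR-608 2 were higher and 0 lower (16.3% and 16.8% of named genes), and with miR-552-3p also 2 and 0 (15.6% and 20.0%). MAFF, a small MAF protein, rose with both mimics, by 1.55 ± 0.09 for miR-608 and 0.84 ± 0.09 for miR-552-3p (limma, adjusted p = 0.00163 and 0.00347), though 1 of its 2 other probes was not called in the first comparison and neither in the second. JDP2, a repressor that pairs with JUN, rose by 0.55 ± 0.11 with miR-608 (adjusted p = 0.0225), and ATF2 by 0.50 ± 0.10 with miR-552-3p (adjusted p = 0.0193). JDP2 was not called when any 1 of the 4 arrays was left out, nor ATF2 without control replicate 1 or either miR-552-3p array. Between the mimics MAFF (0.71 ± 0.09) and JDP2 (0.76 ± 0.11) were higher with miR-608 (adjusted p = 0.00411 and 0.00632, beside 22.7% of named genes called higher). Of the other MAFF probes 1 was called higher too, and 1 stood at -0.32 and was not called.

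The genes closest to FOSL1 over the 6 arrays were sought among 15674 kept probes with 1 gene symbol, by Euclidean distance between log2 values centred on the control mean. The 5 smallest distances were those of RRAD (1.10), GLIPR1 (1.75), IL11 (1.85), C3orf52 (2.11) and CACUL1 (2.16). RRAD and CACUL1 were detected on neither control array, so their distances and their places in this order are not measured. RRAD was at least 2.62-fold higher with miR-608 and 4.82-fold with miR-552-3p. CACUL1 was at least 2.33-fold and 3.90-fold higher. GLIPR1 was higher by 1.16 and 2.70 log2 units and IL11 by 1.47 and 2.44, so both kept the order of FOSL1, whereas C3orf52 was equally high with both mimics, at 2.07.

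**Figure D4:**
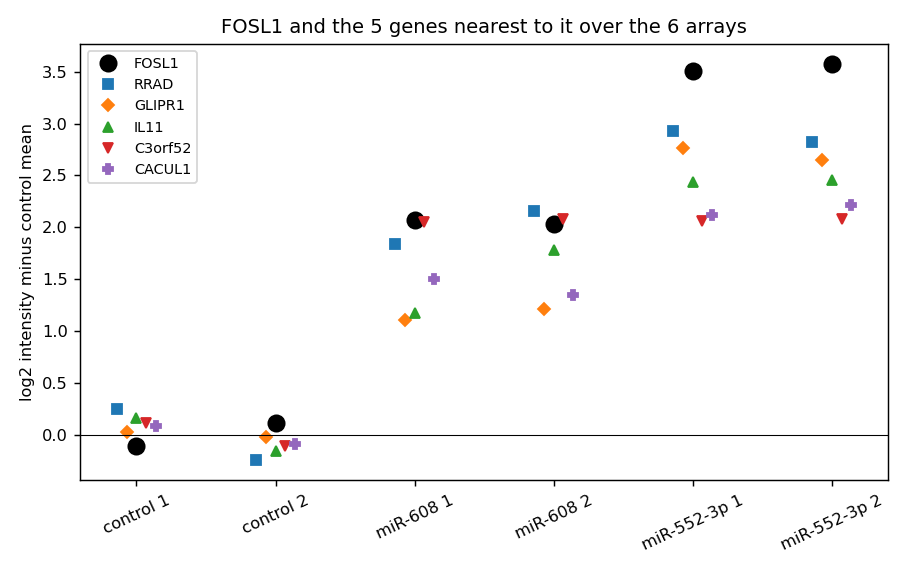
Log2 intensity minus the control mean (vertical axis) of FOSL1 and of the 5 genes nearest to it, on each of the 6 arrays. FOSL1 is the highest point on both miR-552-3p arrays, at 3.51 and 3.58.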

How the data were processed

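Expression was measured on 6 arrays, 2 per group, grouped by sample titles. The authors deposited, for each array and probe, a linear signal intensity and a detection p-value, as the file headers name them. GenomeStudio 2011.1 is named in the submitters' processing notes. Whether that software subtracted background is not given in the sources used. A second deposited table holds log2 values for 17751 probes, with the same quartiles on every array, and served as an alternative. Array number limits the precision.

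Signals were corrected with neqc (limma 3.58.1, R 4.3.3; background inferred from detection p, offset 16), which also quantile normalizes and takes log2; the offset understates changes of dim probes. Kept were the 20749 probes that 2 or more arrays detected at p below 0.05, and 30112 of all probes had 1 gene symbol, 8 several and 17199 were unlisted. One limma model (lmFit, eBayes, 3 residual degrees of freedom) covered all arrays, each probe a row, and its two-sided p-values were adjusted by Benjamini-Hochberg across the kept probes. Where a group lacked detection, a fold is a bound against the lowest detected value. The steps were tested on simulated data.

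Members and lists were chosen with earlier results of these data known. Named were all member probes, up to 4 called, non-overlapping genes of each list and comparison with the smallest adjusted p (ties in alphabetical order), and the 5 genes nearest to FOSL1. Alternatives were other background corrections, the authors' values, median scaling (chosen after seeing the data), other detection filters, an intensity trend, 1 probe per gene, only the groups compared, a replicate block and leaving out each array.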

Additional observations from a re-analysis of the deposited data

How the results depend on the processing

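Over 16 alternatives no difference of a member probe changed direction. Of 429 recomputed member differences 391 stayed on the same side of the threshold, 25 lost their call and 13 gained one. The count of kept probes called moved by over 1.5 times with no detection filter, to 3617 for miR-608 and 4249 for miR-552-3p against control, from 5893 and 6403, where many more dim probes enter the adjustment. Leaving out 1 array gave 2664 to 4880, 3472 to 5668 and, between the mimics, 4837 to 6714 calls (7566 with all arrays), and 3 to 6, 6 to 7 and 5 to 6 called members. The upper ends equal the fits on only the groups compared, since an array left out of the third group leaves a lone array that adds nothing to the spread. The lone array of a compared group is assumed to vary like the other groups. ATF3 with miR-608 was also not called with no detection filter or with median scaling. FOSB was called higher with miR-552-3p with the authors' values, with a replicate block and without control replicate 1. JUND passed with miR-552-3p with the authors' values, an intensity trend and median scaling, and with miR-608 with a trend. BATF3 between the mimics lost its call in 10 of 16 alternatives. JUNB, not called between the mimics in the main fit, gained a call in 5 of 16. Over all kept probes, deviations of same-numbered arrays correlated at -0.02 to 0.03. This does not exclude a pairing in a few genes. FOS, FOSB and JUN were higher in replicate 1 than in replicate 2 in every group, while the other members kept no such order. A replicate block gave 4843, 5558 and 6746 called probes and 6, 7 and 6 called members. Among AP-1 responsive genes, the number lower with miR-608 was 4 with the authors' values or an intensity trend in place of 1. Over all kept probes, the number lower was 3538 and 3790 in these settings in place of 2978. Signal over background limits FOSB and the 2 undetected ATF3 probes.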
